A study of Mus musculus with 56 samples.

Results

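Mutually exclusive exons are neighbouring exons of which a mature mRNA holds either the upstream (5′) or the downstream (3′) exon, but not both. The members described here were all events in the 11 deposited tables of that event type (6 mouse tissues, an siFmr1 experiment and 4 tables of co-transfected cells) with a mean of 20 or more junction reads per replicate in both sample sets of a table. Of 63531 rows in these tables, 60320 passed, which are 26712 of 27638 distinct events, 24969 distinct exon pairs and 7682 genes. Next to the minimum, the 285 rows with 20 to 22 reads had a median absolute difference between sets of 7.3 points in the authors' deposited tables and the 315 rows with 18 to 20 reads one of 6 points. The level of a pair is the share of the 5′ exon, in percent, recomputed from the junction reads of each form divided by the length of that form. Checked against reads that join both exons in the same tables and against transcript annotation, the label held for few of them: 113 distinct pairs in 105 genes were exclusive in at least 1 table.

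Wild-type (WT) mice and mice with a knockout of Fmr1 gave 3 brain regions (cortex, hippocampus and cerebellum) and 3 other tissues (liver, muscle and testis), with 3 samples per genotype in each. Fmr1 encodes FMRP, the RNA-binding protein lost in fragile X syndrome. N2a is a mouse neuroblastoma cell line, of which 3 samples received siRNA against Fmr1 (siFmr1) and 2 a non-targeting siRNA (siNT). In the co-transfection experiment N2a cells received siNT or siFmr1 with the control plasmid pcDNA, or siRNA against Mbnl1 (siMbnl1) with pcDNA; 2 more groups received a plasmid for FLAG-tagged MBNL1, either the nuclear form (nMBNL1) after siFmr1 or the cytoplasmic form (cMBNL1) after siMbnl1, and each of the 5 groups had 3 samples. MBNL1 is a splicing regulator of the muscleblind family. The labels give no age or sex of the mice, and do not say whether samples came from separate animals or cultures, so p-values measure the spread between these samples, which may be technical.

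Many such pairs arose by duplication of an exon, so that both members code for the same stretch of the protein with different residues. Because each mRNA takes exactly 1 of them, the choice exchanges a segment without changing the rest of the protein, as long as the reading frame is kept. Well-known examples exchange part of the enzyme pyruvate kinase, of tropomyosin along the actin filament, of the voltage sensor of sodium channels and of the SNARE protein SNAP-25, and the choice differs between brain, muscle and other tissues and during development.

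The sequences of 5 such pairs are shown because their levels carry most of the results below, in tissues or in N2a cells. They are exons of GENCODE M21 transcripts on GRCm38, all coding, written 5′ to 3′ on the strand of the gene, with capitals at the positions where the 2 exons of a pair differ. Snap25 encodes the plasma membrane SNARE of synaptic vesicle fusion, and its exons (plus strand) differed at 31 of 118 positions.
Snap25 5′ exon, chr2:136769743-136769860: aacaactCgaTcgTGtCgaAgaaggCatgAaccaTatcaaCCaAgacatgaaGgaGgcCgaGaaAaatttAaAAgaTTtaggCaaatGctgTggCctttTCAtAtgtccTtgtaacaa
Snap25 3′ exon, chr2:136770057-136770174: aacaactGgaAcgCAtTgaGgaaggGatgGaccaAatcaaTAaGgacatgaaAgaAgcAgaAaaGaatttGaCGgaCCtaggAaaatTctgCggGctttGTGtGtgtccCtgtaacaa
Pkm encodes pyruvate kinase, the last enzyme of glycolysis. Its 5′ exon gives the M1 form of muscle and brain and its 3′ exon the M2 form of many dividing cells (plus strand, 64 of 167 positions differed).
Pkm 5′ exon, chr9:59675029-59675195: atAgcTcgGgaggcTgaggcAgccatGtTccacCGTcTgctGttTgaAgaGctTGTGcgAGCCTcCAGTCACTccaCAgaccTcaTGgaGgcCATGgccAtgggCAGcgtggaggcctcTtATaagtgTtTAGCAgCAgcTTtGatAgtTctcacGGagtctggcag
Pkm 3′ exon, chr9:59675568-59675734: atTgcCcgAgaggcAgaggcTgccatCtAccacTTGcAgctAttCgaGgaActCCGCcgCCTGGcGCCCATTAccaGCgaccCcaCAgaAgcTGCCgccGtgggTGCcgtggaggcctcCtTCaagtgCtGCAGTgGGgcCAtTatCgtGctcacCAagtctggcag
Tpm1 encodes a tropomyosin, a coiled coil that lies along actin filaments (minus strand, 33 of 76 positions differed).
Tpm1 5′ exon, chr9:67032466-67032541: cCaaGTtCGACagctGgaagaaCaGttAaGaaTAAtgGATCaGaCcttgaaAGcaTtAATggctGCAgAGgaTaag
Tpm1 3′ exon, chr9:67031951-67032026: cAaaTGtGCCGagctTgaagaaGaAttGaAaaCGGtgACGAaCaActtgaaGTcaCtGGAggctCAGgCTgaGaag
Dnm2 encodes dynamin 2, a GTPase that cuts vesicles from membranes (plus strand, 44 of 139 positions differed).
Dnm2 5′ exon, chr9:21478899-21479037: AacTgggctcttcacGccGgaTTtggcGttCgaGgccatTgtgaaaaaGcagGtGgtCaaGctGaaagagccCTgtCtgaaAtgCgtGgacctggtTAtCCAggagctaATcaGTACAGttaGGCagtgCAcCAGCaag
Dnm2 3′ exon, chr9:21480407-21480545: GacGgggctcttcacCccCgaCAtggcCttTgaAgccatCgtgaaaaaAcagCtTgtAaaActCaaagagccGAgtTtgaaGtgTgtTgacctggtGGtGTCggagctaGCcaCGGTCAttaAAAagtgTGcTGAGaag
Rab6a encodes a small GTPase of Golgi traffic (plus strand, 30 of 106 positions differed).
Rab6a 5′ exon, chr7:100629666-100629771: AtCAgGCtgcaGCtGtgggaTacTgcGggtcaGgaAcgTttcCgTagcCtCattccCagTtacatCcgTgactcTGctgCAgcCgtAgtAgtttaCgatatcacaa
Rab6a 3′ exon, chr7:100629838-100629943: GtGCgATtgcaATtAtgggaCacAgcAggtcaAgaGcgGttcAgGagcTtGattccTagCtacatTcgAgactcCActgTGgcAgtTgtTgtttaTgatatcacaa

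Gene counts per sample summed to 26264368 to 41384652 in the 18 brain samples and to 13230785 to 16168225 in the 18 other tissue samples. Of the defining markers, Alb was at 60401 to 88285 CPM (gene counts scaled to the same total in each sample) in liver, Ckm at 22131 to 26141 in muscle, Prm1 at 2944 to 3168 in testis and Snap25 at 2080 to 3817 in the 3 brain regions. Ttr, a liver marker that the choroid plexus of the brain also makes, was at 4370 to 6360 CPM in liver, but also at 331 to 1277 in cerebellum, 7.22 to 4261 in hippocampus and 1.63 to 205 in cortex, so the samples of a brain region differed widely in it. The fat markers Adipoq and Plin1 were at 6.32 to 7.99 and 1.72 to 4.45 CPM in WT muscle and at 13.2 to 39.6 and 4.23 to 15.7 CPM in knockout muscle. Their part in the results was not tested. Fmr1 was lower in every knockout sample than in every WT sample of the same tissue except in muscle, where the ranges overlapped (WT 10.9 to 16.8 CPM, knockout 8.63 to 11.2 CPM). In N2a cells Fmr1 was at 20.04 to 81.2 CPM in the 2 siNT samples and 2.099 to 15.8 CPM in the 3 siFmr1 samples. In the co-transfection Mbnl1 was at 1408 to 1538 normalized counts with siMbnl1 and pcDNA, and at 11032 to 13253 and 16769 to 23339 with the nuclear and cytoplasmic plasmids, where transcripts of gene and plasmid cannot be told apart.

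The junction tables name 2 sets of samples each. In the tissue tables nothing says which set is WT and which is knockout, so they are called the first and the second set. In the siFmr1 table the number of values shows that the first set is siFmr1 and the second siNT. The 4 co-transfection tables are called the control-plasmid, siMbnl1, nMBNL1 and cMBNL1 comparisons. The labels tie the control-plasmid comparison to siNT with pcDNA and siFmr1 with pcDNA without saying which of its sets is which, so its first set is called set A and its second set B. Set A recurs, with identical values, as the second set of the nMBNL1 comparison, whose first set is siFmr1 with nMBNL1. Set B recurs as the second set of the siMbnl1 comparison (first set siMbnl1 with pcDNA) and of the cMBNL1 comparison (first set siMbnl1 with cMBNL1). The labels tie each of these comparisons to the group it is named after, so the set that does not recur was taken as that group.

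Most listed pairs were in fact 2 exons spliced together in most transcripts. A pair was classed as mostly joined where reads across the skipped exon events of the same table put the transcripts with both exons at 90% or more, and as exclusive where they put them at 10% or less (or no such event joined the exons), both exons were annotated and no annotated transcript held both. Mostly joined pairs made up 45.3% (cortex) to 75.6% (liver) of the pairs in a table, and exclusive pairs 0.483% (cMBNL1 comparison) to 11.1% (cortex). In numbers, the exclusive events were 43 of 386 in cortex, 46 of 420 in hippocampus, 45 of 528 in cerebellum, 25 of 1592 in liver, 38 of 1649 in muscle, 36 of 3192 in testis, 46 of 4089 in the siFmr1 table and 67 to 72 in the co-transfection comparisons, with 10140 to 14279. By these criteria the number listed differed between tables far more than the number of exclusive pairs. That depends on the annotation: by reads alone, exclusive events ran from 75 in cortex to 926 in the cMBNL1 comparison. For a mostly joined pair the level compares the reads on the upstream junction of the first exon with those on the downstream junction of the second, which lie on the same transcripts; it lay between 40% and 60% in 31.5% to 61.98% of mostly joined pairs per table, against 8.33% to 23.9% of exclusive ones.

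Exclusive pairs had the build of duplicated exons more often than mostly joined pairs in every table. The 2 exons had equal length in 30.99% to 44.4% of exclusive and at most 2.78% of mostly joined pairs. Their lengths differed by a multiple of 3, which keeps the reading frame, in 69.01% to 93.3% against 35.8% to 46.9%. Aligned to each other the exons were identical at 60% or more of the positions in 30.99% to 48% against 0.586% to 2.18%. Length and sequence were not used to class the pairs, and the tables share many pairs. Among the 113 distinct exclusive pairs, 26 had exons of equal length, 75 a difference that is a multiple of 3, 28 an identity of 60% or more and 75 both exons coding, and the exons were 12 to 2746 bases long with a median of 106. Of 51 genes chosen as known for exclusive exons, 38 had a pair that passed the read minimum and 24 had an exclusive one.

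**Figure D1:**
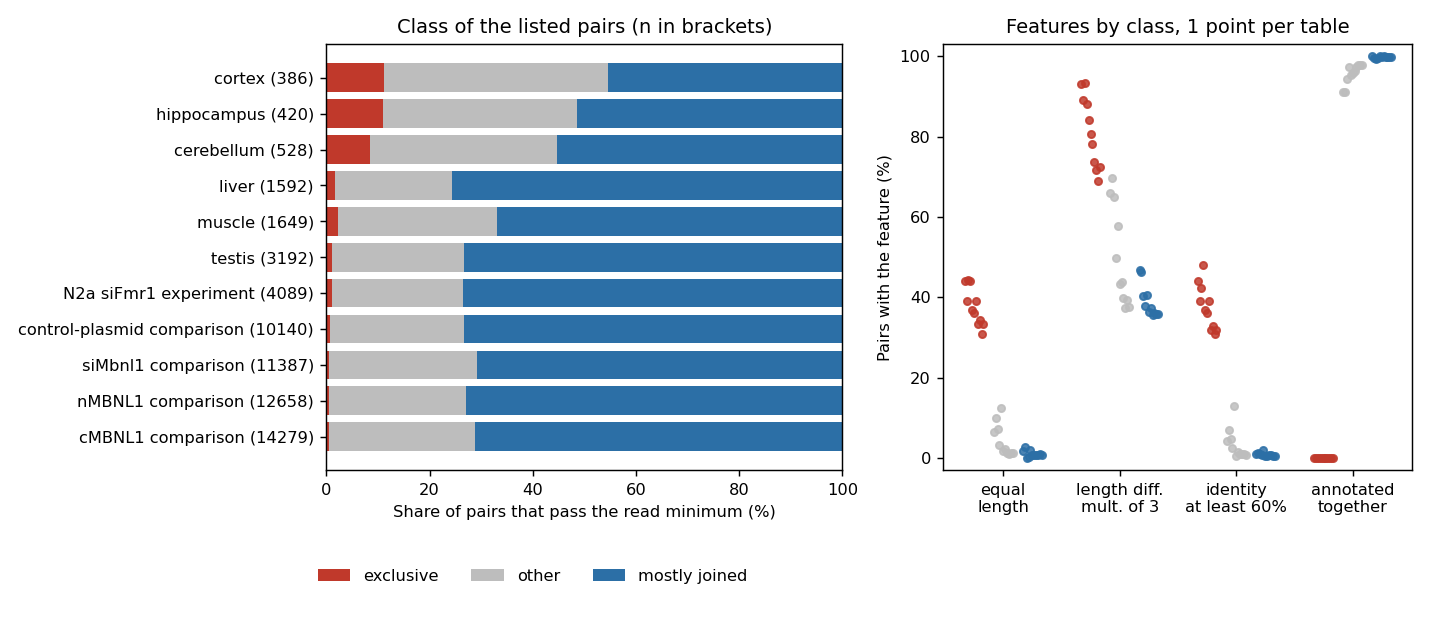
Left, the share (%) of exclusive, other and mostly joined pairs among those that passed the read minimum in each of the 11 tables (bars, number of pairs in brackets). Right, the percent of pairs of each class with exons of equal length, a length difference that is a multiple of 3, an identity of at least 60%, or an annotated transcript that holds both exons (1 point per table, in the same colours); red exclusive points lie above blue mostly joined points for the first 3 features, and the last was used to define the exclusive class.

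Levels of pairs exclusive in at least 1 tissue, and of Gria2 and Gria3, were set side by side across tissues. No test was made, since the tables were counted separately and with different form lengths (39 to 68 bases in brain, 154 to 298 elsewhere). The pairs of Cacnb1, Dlgap4, Pfkp, Rbfox1, Rbfox2 and Fgfr3 were not exclusive in every tissue where they passed. Both sets of a tissue were pooled, and medians over its 6 samples are given. In bulk tissue a change of exon choice within cells and a change in the share of cell types cannot be told apart. Of the 21 pairs that passed in 4 or more tissues and were exclusive in each tissue where they passed, 13 had tissue means more than 50 points apart and 0 had means within 10 points; the median range was 72.3 points, beside a median of 8.51 points for the largest SD within a tissue. Among all 111 genes with a pair in 4 or more tissues, the median range was 27.7 points.

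Among synaptic and membrane traffic genes, 1 Dnm1 pair differed between all 3 brain regions without overlap, and Dnm2 overlapped between them. In testis this Dnm1 pair overlapped with cortex and hippocampus. Another exclusive Dnm1 pair had means of 94.5% to 97.2% in the brain regions, where hippocampus overlapped with both cortex and cerebellum. Dnm1, the dynamin of synaptic vesicle recycling, used the 5′ exon of the pair without overlap at 16.3% (lowest 14.6%, highest 18.6%) in cortex, 24.9% (lowest 22.3%, highest 25.8%) in hippocampus and 37.3% (lowest 35.5%, highest 37.9%) in cerebellum. Its relative Dnm2, present in all 6 tissues, went from 4.26% (lowest 2.42%, highest 8.08%) in testis through 40% (lowest 36.7%, highest 64.3%) in cortex and 64.1% (lowest 51.9%, highest 82.2%) in liver to 91.5% (lowest 85.7%, highest 96%) in muscle. The testis and the muscle samples stood apart from all others for Dnm2, while cortex, hippocampus, cerebellum and liver overlapped with their neighbours in this order. Snap25 used the 5′ exon little in brain, at 7.86% (lowest 6.24%, highest 14.6%) in cortex, 6.02% (lowest 4.97%, highest 8.102%) in hippocampus and 0.905% (lowest 0.768%, highest 1.14%) in cerebellum. The cerebellar samples were below all samples of the other regions. Rab6a used the 5′ exon at 2.36% (lowest 0.749%, highest 3.02%) in cortex and up to 27.9% (lowest 18.6%, highest 36.8%) in liver, the tissue with the highest level. Dlgap4, a scaffold protein of the postsynaptic density, had the 5′ exon at 81.2% (lowest 78.8%, highest 84.8%) in hippocampus, 47.5% (lowest 41.96%, highest 62%) in cerebellum and 0.4605% (lowest 0.149%, highest 0.905%) in testis.

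The AMPA glutamate receptor subunits have flip and flop exons that shape how the channel opens and desensitizes, and 2 of the 4 subunits, Gria1 and Gria4, had cerebellar levels apart from the other 2 regions. Gria1 used the 5′ exon at 71.7% (lowest 68.9%, highest 78.7%) in cortex, 76.9% (lowest 73.1%, highest 83.8%) in hippocampus and 9.51% (lowest 8.16%, highest 12.7%) in cerebellum. Gria4 used it at 75.1% (lowest 69.05%, highest 84.4%) in cortex, 72.6% (lowest 54.5%, highest 90.5%) in hippocampus and 26.4% (lowest 20.5%, highest 27.1%) in cerebellum. For both genes the cerebellar samples did not overlap with those of cortex or hippocampus, which overlapped with each other. Gria2, the subunit that makes the channel impermeable to calcium, stood at 52.7% (lowest 46.3%, highest 62.6%) in cortex, 58.9% (lowest 56.9%, highest 65.5%) in hippocampus and 44.7% (lowest 41.4%, highest 53.02%) in cerebellum. Gria3 stood at 14.8% (lowest 11.9%, highest 31.9%), 21.4% (lowest 15.4%, highest 31.5%) and 13.5% (lowest 6.67%, highest 27.7%) in the same order. Cerebellum overlapped with cortex for Gria2 and Gria3, whose pairs were not in the exclusive class.

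Of the ion channel subunits, Scn8a separated brain from N2a cells and Cacnb1 separated muscle from the other tissues. Scn8a encodes the sodium channel Nav1.6, and its 5′ exon is the neonatal and its 3′ exon the adult form of a part of the first voltage sensor. The neonatal exon stood at 5.79% (lowest 2.06%, highest 7.69%) in cortex, 3.95% (lowest 0%, highest 5.88%) in hippocampus and 5.496% (lowest 3.39%, highest 10.2%) in cerebellum, and the regions overlapped. In N2a cells the same exon made up 91.7% (lowest 88.2%, highest 100%) of the reads over 5 samples, above every brain sample. Cacnb1, a calcium channel subunit of skeletal muscle and brain, had the largest range of the 111 genes, from 0.4395% (lowest 0%, highest 1.37%) in hippocampus to 99.5% (lowest 99.1%, highest 100%) in muscle; its exons have 155 and 20 bases and are no match in length.

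Of the metabolic enzymes, Pkm used the 5′ (M1) exon at 99.3% (lowest 98.7%, highest 99.5%) in muscle, 93.8% (lowest 91.9%, highest 96.3%) in cortex, 77.7% (lowest 73.8%, highest 81.1%) in testis and 18.7% (lowest 10.9%, highest 28.1%) in liver, where 53 reads lay on the 5′ and 221 on the 3′ exon over 6 samples. Pfkp, the platelet type of phosphofructokinase of glycolysis, had the 5′ exon at 99.6% (lowest 97.5%, highest 100%) in cortex and 0.896% (lowest 0.391%, highest 1.75%) in testis. Far1, a fatty acyl-CoA reductase of ether lipid synthesis, had it at 100% (lowest 91.3%, highest 100%) in cortex and 8.89% (lowest 3.52%, highest 18.7%) in testis. Testis thus used the other exon of both genes than the brain regions, with no overlap. Ogdh, the first enzyme of the 2-oxoglutarate dehydrogenase complex of the citric acid cycle, used the 5′ exon at 78.8% (lowest 69.4%, highest 80.8%) in testis, 35.3% (lowest 27.97%, highest 41.7%) in cortex, 2.52% (lowest 1.01%, highest 3.48%) in liver and 0.109% (lowest 0%, highest 0.219%) in muscle. Cept1, an enzyme of phospholipid synthesis, had it at 0% (lowest 0%, highest 4.35%) in hippocampus, 56.5% (lowest 40.3%, highest 64.4%) in muscle and 90.6% (lowest 84.6%, highest 99.01%) in liver. Acsl6, an acyl-CoA synthetase, overlapped between cortex, at 51.03% (lowest 42.6%, highest 59.2%), and hippocampus, and reached 96.6% (lowest 94.7%, highest 100%) in muscle.

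The 3 tropomyosin genes all used mainly the 3′ exon in muscle, as did Tpm1 and Tpm3 in cortex. In muscle the 3′ exon of the 76-base pair took nearly all reads in each: the 5′ exon stood at 0.0153% (lowest 0.004097%, highest 0.0223%) in Tpm1, 0.396% (lowest 0.182%, highest 0.547%) in Tpm2 and 5.25% (lowest 1.47%, highest 8.43%) in Tpm3. Tpm1 kept the 3′ exon in cortex, at 1.49% (lowest 0.532%, highest 1.88%) for the 5′ exon, but not in liver, at 65.8% (lowest 57.01%, highest 77.6%). Tpm3 used the 5′ exon at 9.92% (lowest 5.45%, highest 12.8%) in cortex but 98.2% (lowest 91.5%, highest 99.1%) in liver and 97.2% (lowest 96.9%, highest 99.1%) in testis. Tpm2 had it at 87.3% (lowest 77.8%, highest 100%) in testis. Liver and testis samples of Tpm3 lay above all samples of the other 4 tissues.

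Mapk9, which encodes JNK2, used the 5′ exon at 46.7% (lowest 38.9%, highest 52.7%) in cortex, 46.3% (lowest 36.4%, highest 48.3%) in hippocampus and 51.1% (lowest 40.7%, highest 56.2%) in cerebellum, but 9.82% (lowest 2.47%, highest 15.9%) in liver, 10.8% (lowest 2.83%, highest 12.5%) in muscle and 10.1% (lowest 6.56%, highest 14.4%) in testis. The 3 brain regions overlapped with each other and lay above the 3 other tissues, which also overlapped. Mapk14, which encodes p38α, went from 27.9% (lowest 13.7%, highest 38.8%) in cerebellum to 99.7% (lowest 98.2%, highest 100%) in muscle. Fyn, a Src-family kinase, used its 5′ exon at 97.8% (lowest 93.4%, highest 100%) in cortex, 65.5% (lowest 50%, highest 77.4%) in muscle and 36.7% (lowest 31.6%, highest 47.5%) in testis. Fgfr3, a fibroblast growth factor receptor, had the 5′ exon at 0% (lowest 0%, highest 2.22%) in cortex and 76.7% (lowest 67.5%, highest 85.1%) in liver, and Fgfr2 passed only in liver, at 75.3% (lowest 71.7%, highest 88.7%).

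The splicing factors Rbfox1 and Rbfox2 have a 40-base 5′ exon and a 43-base 3′ exon, known as the brain and the muscle exon. Rbfox1 used the 40-base exon at 100% (lowest 99.3%, highest 100%) in cortex and 0.787% (lowest 0.416%, highest 2.11%) in muscle. For Rbfox2 the levels were 98.7% (lowest 97.96%, highest 100%) in cortex, 100% (lowest 95.9%, highest 100%) in liver and 13.6% (lowest 0%, highest 19.7%) in muscle. H2afy, which encodes the histone variant macroH2A1, used its 5′ exon at 3.097% (lowest 1.32%, highest 5.85%) in muscle, 63.4% (lowest 48.9%, highest 72.4%) in liver, 84.1% (lowest 80.1%, highest 87.4%) in cerebellum and 96.9% (lowest 95.5%, highest 99.2%) in testis; muscle and testis stood apart from all other samples, the brain regions overlapped, and the highest liver sample reached the lowest cortex sample. Mef2c, a transcription factor of muscle and neurons, had the 5′ exon at 98.8% (lowest 98.6%, highest 99.2%) in cortex and 25.7% (lowest 21.2%, highest 27.5%) in muscle. Mef2a ranged from 47.3% (lowest 37.4%, highest 53.4%) in muscle to 72.2% (lowest 67.5%, highest 74.3%) in testis.

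**Figure D2:**
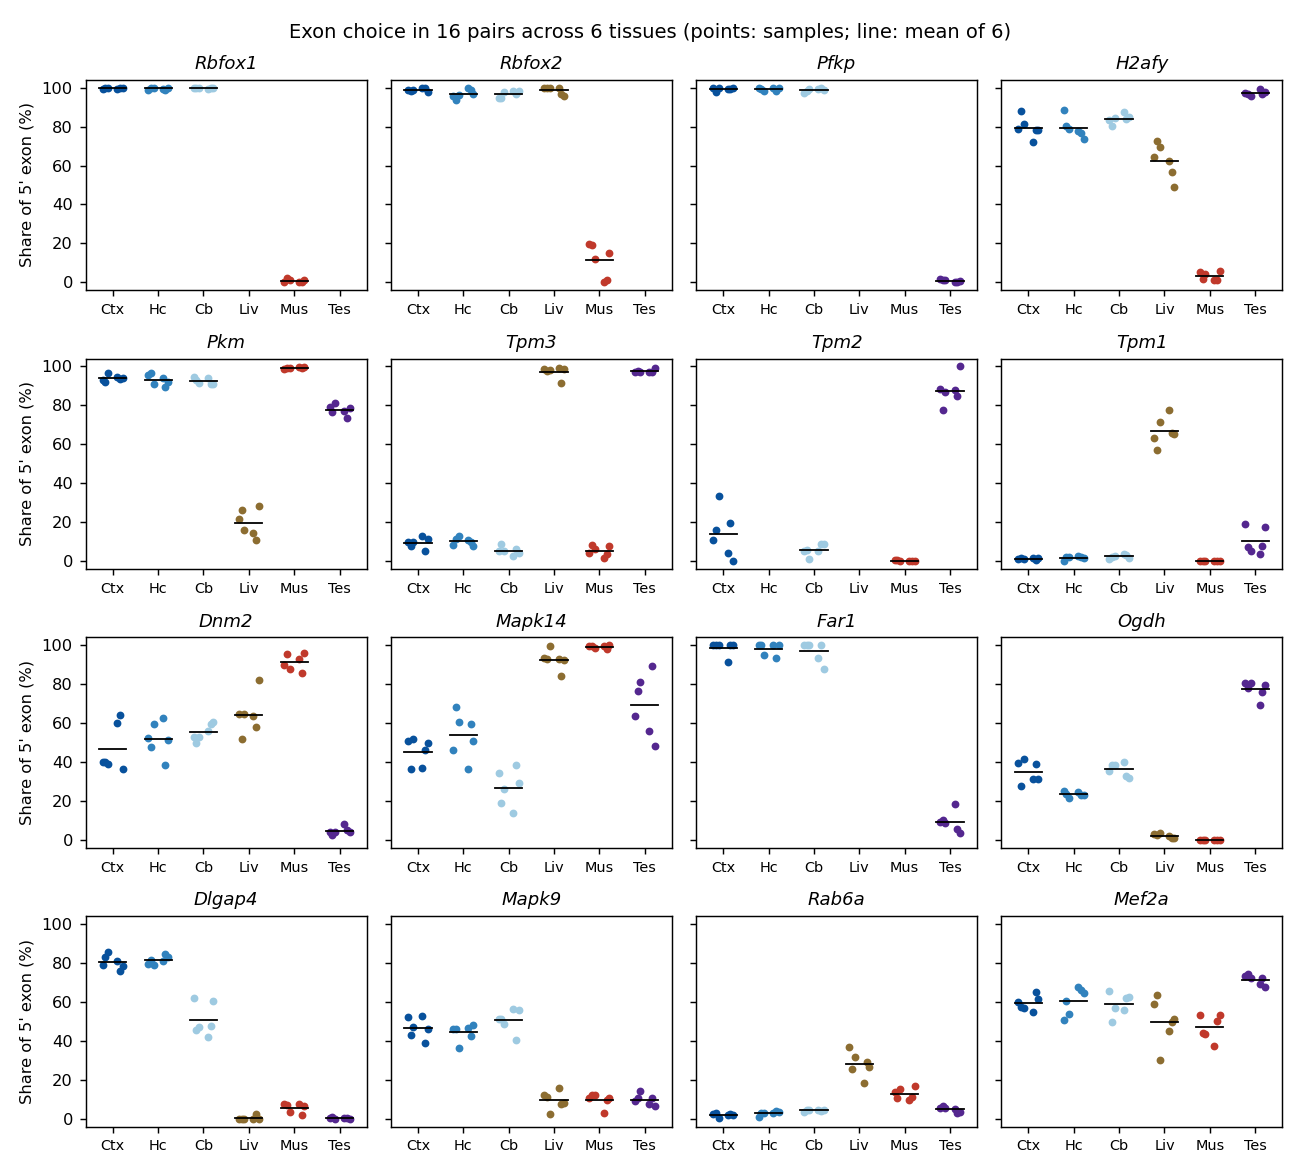
Share of the 5′ exon (%) in 16 pairs in cortex (Ctx), hippocampus (Hc), cerebellum (Cb), liver (Liv), muscle (Mus) and testis (Tes); each point is a sample, the left 3 points of a tissue are its first set and the right 3 its second, and the line is the mean of 6. An empty place means that the pair did not pass the read minimum there; the means of muscle and cerebellum lie 98.9 points apart in Rbfox1.

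N2a cells used the Snap25 5′ exon at 80.4% (lowest 75.3%, highest 85.2%), above all 18 brain samples. The 5′ exon of the Dnm1 pair that did not overlap between brain regions stood at 90.8% (lowest 88.5%, highest 92.2%), also above all 18. Tpm3 likewise had its 5′ exon at 87.1% (lowest 80.2%, highest 93.2%), near liver and testis rather than brain. Mapk9, at 11.8% (lowest 5.63%, highest 32.3%), was below all brain samples. These are separate tables with different form lengths, and no test was made.

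**Figure D3:**
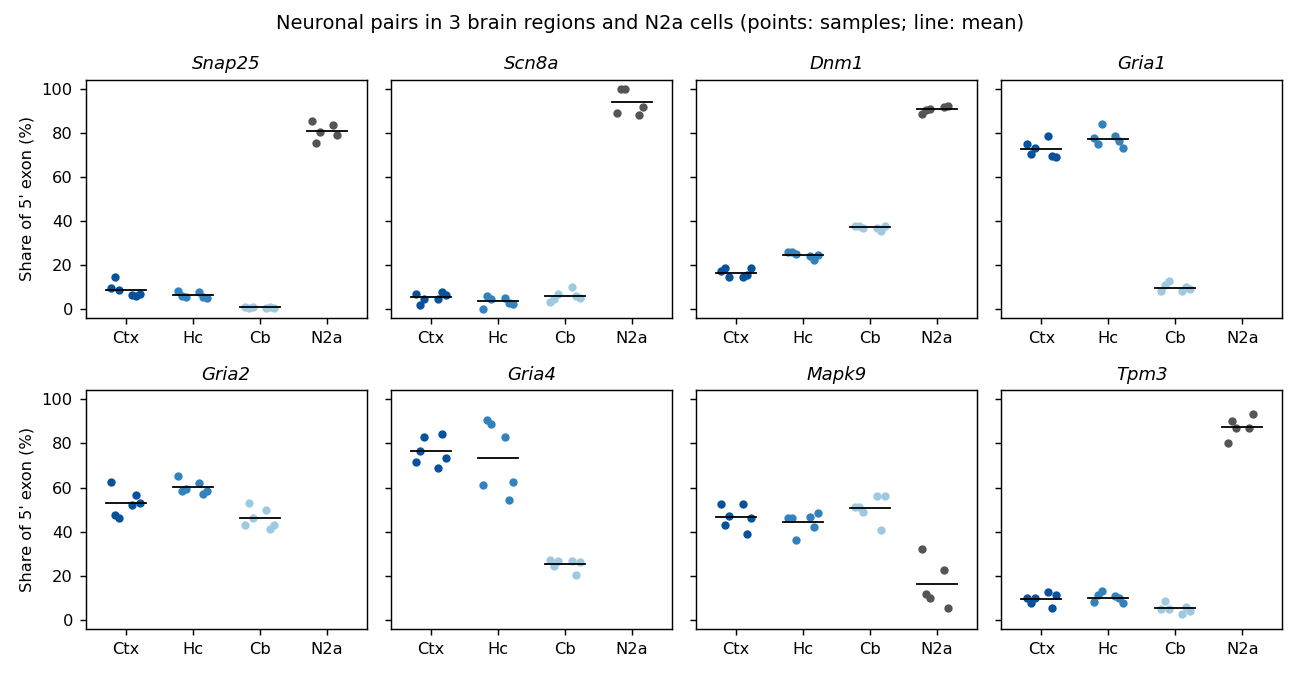
Share of the 5′ exon (%) of 8 equal-length pairs in cortex (Ctx), hippocampus (Hc), cerebellum (Cb) and N2a cells of the siFmr1 experiment; points are samples (6 per region, 5 in N2a) and lines their means. Snap25, Scn8a, Dnm1 and Tpm3 are high in N2a and low in brain, and the Gria genes did not pass the read minimum in N2a.

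The comparison of the sets within each tissue asks whether exon choice differed between WT and Fmr1 knockout, in a direction that the tables leave unstated. By the quasi-binomial test no exclusive pair was called in any of the 6 tissues, where a call needs an adjusted p under 0.05 (quasi-binomial test on the reads, Benjamini-Hochberg over all pairs of the table) and a difference of at least 10 points. Over all pairs, 1 of 386 (0.259%) was called in cortex, 4 of 1649 (0.243%) in muscle and 154 of 3192 (4.82%) in testis. In hippocampus 0 of 420 (0%), in cerebellum 0 of 528 (0%) and in liver 0 of 1592 (0%) were called by the quasi-binomial test, with 34, 33 and 218 at an unadjusted p under 0.05, and limma on log2 ratios called 0 in each, with 23, 39 and 131 at an unadjusted p under 0.05. Limma also called 0 in cortex, muscle and testis. By the authors' deposited FDR with the same minimum difference 1 was called in hippocampus, 0 in cerebellum and 52 in liver. Without the last value of the second set the quasi-binomial test called 64 in liver.

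Among exclusive pairs, an unadjusted p under 0.05 was reached by 3 of 43 in cortex, 7 of 46 in hippocampus, 1 of 45 in cerebellum, 1 of 25 in liver, 3 of 38 in muscle and 3 of 36 in testis. Over all pairs it was reached by 33 of 386 in cortex, 34 of 420 in hippocampus and 33 of 528 in cerebellum. In liver 218 of 1592 reached it, in muscle 144 of 1649 and in testis 769 of 3192. Of the known genes, 20 pairs in cortex, 18 in hippocampus, 19 in cerebellum, 12 in liver, 14 in muscle and 13 in testis were exclusive. Of these pairs 0 were called by the quasi-binomial test or by limma. By the authors' deposited FDR with the same minimum difference 1 was called, H2afy in liver. Its 5′ exon stood at 64.3%, 72.4% and 69.4% in the first and 62.5%, 56.8% and 48.9% in the second set, a difference of 12.7 points without overlap (adjusted p = 0.32, quasi-binomial test). Snap25 in cortex passed only without the minimum difference: the first set had 9.85%, 14.6% and 8.89% and the second 6.699%, 6.24% and 6.84%, a difference of 4.53 points with an adjusted p of 2.8e-05 by the quasi-binomial test. The Pkm levels of the sets differed by 0.3799 points in cortex, 0.461 in muscle, 2.59 in testis and 3.302 in liver, and the Dnm2 levels by 13.9, 0.583, 2.104 and 7.34 points; 0 of these 8 were called.

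All tissue calls by the quasi-binomial test were outside the exclusive class. Mff, which recruits the fission machinery to mitochondria, was the only call in cortex, with 42.5%, 40.6% and 51.2% in the first and 59.5%, 54.98% and 62.5% in the second set (adjusted p = 0.039, quasi-binomial test). The sets did not overlap. In muscle the calls of largest difference were Dusp13, a phosphatase of testis and skeletal muscle, Sdha, the catalytic subunit of succinate dehydrogenase, and Sepw1, a selenoprotein of muscle, with differences of 19.1, 12.8 and 12.5 points; all 4 muscle calls were mostly joined pairs. None of the named cortex and muscle calls held when any 1 of the 6 samples was left out.

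In testis 122 of the 154 calls were mostly joined pairs, 32 were in the intermediate class and 0 were exclusive. The second set was higher in 69 and lower in 85. The largest differences were in Tmbim6, an endoplasmic reticulum protein that limits cell death, at 24.5 points, Fkbp4, a co-chaperone of HSP90, at 24.1 points, and Nr6a1, the germ cell nuclear factor, at 22.8 points. Nr6a1 stood at 20.6%, 16.5% and 19.6% in the first and 41.3%, 40.7% and 43.1% in the second set (adjusted p = 0.0057, quasi-binomial test), with no overlap. Fkbp4 and Nr6a1 were mostly joined pairs, with both exons in 97.8% or more of transcripts, and Tmbim6 was in the intermediate class. The level of a mostly joined pair compares junctions that lie on the same transcripts. With a sample left out Tmbim6 was called in 1 of 6 repeats, Fkbp4 in 2 of 6 and Nr6a1 in 2 of 6. On skipped exons the same test called 0% in each brain region, 0.13% in liver, 0.3% in muscle and 0.0873% in testis. The testis count changed when 1 sample was left out, for a cause that was not tested. Without any 1 of 4 samples (the last 2 values of the first set or the first 2 of the second) it was 0. Without the first value of the first set it was 301.

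In the siFmr1 experiment the only pair called was Pkm, 1 of 4089 (0.0245%). The M1 exon stood at 65.1%, 54.7% and 62.7% in the siFmr1 samples, 60.8% ± 5.44 (SD, n = 3). In the siNT samples it stood at 53.2% and 42.4%, 47.8% ± 7.67 (SD, n = 2). The level was 13.02 points higher with siFmr1 (adjusted p = 0.02, quasi-binomial test), and the lowest siFmr1 sample lay above the highest siNT sample. The same test called 0% of the skipped exons of this table. The pair was called in 0 of 5 repeats with a sample left out, and by limma its adjusted p was 0.86. In these repeats the difference (siNT minus siFmr1) ran from -18.4 to -7.599 points. Samples of the same group stood apart in other genes: Mbnl1 was at 41.7 to 249 CPM and Snap25 at 56.1 to 212 CPM in the 2 siNT samples, against 59.1 to 246 and 87 to 189 CPM with siFmr1, and the part of this in the result was not tested. Of the 16 exclusive events of known genes in this table no other was called: Snap25 had 80.3% ± 4.95 (SD, n = 3) with siFmr1 and 81.3% ± 3.21 (SD, n = 2) with siNT, and Dnm2 66.8% ± 12.7 (SD, n = 3) and 67.3% ± 2.52 (SD, n = 2).

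The co-transfection asks how exon choice differs after loss of Fmr1 or Mbnl1 and with MBNL1 sent to nucleus or cytoplasm. Between sets A and B 227 of 10140 pairs (2.24%) were called, in the siMbnl1 comparison 330 of 11387 (2.9%), in the nMBNL1 comparison 12 of 12658 (0.0948%) and in the cMBNL1 comparison 904 of 14279 (6.33%). Since 3 of the comparisons share set B and 2 share set A, their calls are not independent. In the same order, 173, 245, 5 and 664 of the calls were mostly joined pairs and 3, 4, 0 and 6 exclusive ones. The share called among exclusive pairs was 4.17%, 5.97%, 0% and 8.7%. In the nMBNL1 comparison the quasi-binomial test gave 14 of 71 exclusive pairs an unadjusted p under 0.05, against 1055 of 12658 over all pairs. The only call by limma in this comparison was Mbnl1.

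Samples of set B varied more than the others. The median SD of a pair was 5.17 to 5.19 points in that set, against 2.86 to 3.24 points in the other 4 sets. Without its first sample the counts of calls were 518, 585 and 1292 in the control-plasmid, siMbnl1 and cMBNL1 comparisons, and without its last sample 51, 91 and 402. Leaving out any 1 sample of the first sets gave 1 to 20, 18 to 44 and 93 to 142. The part of this spread in the calls was not tested. On skipped exons the same test called 0.839%, 0.536%, 0.676% and 0.828% of the exons in the 4 comparisons.

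Among the exclusive pairs called, Pkm had the largest difference, between sets A and B. Limma did not call it, with an adjusted p of 0.065 there and 0.088 in the cMBNL1 comparison. The M1 exon stood at 60.5%, 61.1% and 61.6% in set A. It stood at 29.7%, 32.2% and 35.2% in set B, 28.7 points lower (adjusted p = 9.6e-05, quasi-binomial test). The sets did not overlap, and the pair was called in 6 of 6 repeats with a sample left out. With siMbnl1 and pcDNA it was 31.5%, 32.6% and 33.1%, within the range of the set it was compared with (adjusted p = 0.99). With siMbnl1 and cMBNL1 it was 45.7%, 46.2% and 44.3%, 13.04 points above that set (adjusted p = 0.0014; called in 6 of 6 repeats). With siFmr1 and nMBNL1 it was 67.9%, 68.3% and 67.2%, 6.73 points above set A (adjusted p = 1.0e-12), which is under the minimum difference.

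Tpm1 moved the other way between the same sets. Its 5′ exon stood at 25.8%, 31.5% and 29.3% in set A and at 57.3%, 47.9% and 52.4% in set B, a difference of 23.7 points (adjusted p = 0.0048, quasi-binomial test). With siMbnl1 and cMBNL1 it was 36.1%, 36.7% and 37.1%, 15.9 points below its comparison set (adjusted p = 0.0052). With siMbnl1 and pcDNA it was 50.3%, 51.95% and 50.4% and with siFmr1 and nMBNL1 22.9%, 23.4% and 26.3%, and neither was called. Both Tpm1 calls held in 5 of 6 repeats.

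Snap25 was highest in set B, at 90.3%, 90.5% and 88.5%. With siMbnl1 and cMBNL1 it was 75.1%, 71.7% and 74.3%, 16.1 points lower (adjusted p = 0.0011, quasi-binomial test; called in 6 of 6 repeats, limma adjusted p = 0.041). With siMbnl1 and pcDNA it was 78.01%, 82.5% and 79.7%, 9.72 points lower than the same set, with an adjusted p of 0.01 but under the minimum difference. With siFmr1 and nMBNL1 it was 75.6%, 71.1% and 73.98%, against 83.02%, 81.1% and 80.9% in set A, a difference of 8.11 points (adjusted p = 1.7e-05), also under the minimum.

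Dnm2 was called with siMbnl1 and pcDNA, where the 5′ exon stood at 38.8%, 33.6% and 35.7% against 57.7%, 55.4% and 56.3% in the comparison set. The difference was 20.5 points (adjusted p = 0.014, quasi-binomial test; called in 3 of 6 repeats). With siMbnl1 and cMBNL1 it was 49.9%, 54.98% and 52.2% and was not called (adjusted p = 0.41). Acp1, a small tyrosine phosphatase whose 2 exchanged exons of 114 bases give its fast and slow forms, stood at 73.9%, 77.3% and 75.2% with siMbnl1 and pcDNA against 63.9%, 64.7% and 67.04% (difference 10.3 points, adjusted p = 0.0073; called in 1 of 6 repeats). With siMbnl1 and cMBNL1 it stood at 73.8%, 75.3% and 73.1%, 8.83 points above the same set.

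Rab6a and Scn8a lay near the ends of the scale. Rab6a had 15.3%, 9.26% and 11.1% of its 5′ exon in set B and 1.78%, 3.15% and 2.88% in set A, a difference of 9.29 points (adjusted p = 0.0097, quasi-binomial test) that missed the minimum. The other 3 sets had means of 4.36%, 6.19% and 5.28%. Scn8a had only its 5′ exon in the 3 samples of set B, listed at 100% each, and 95.2%, 79.2% and 81.03% with siMbnl1 and cMBNL1 (adjusted p = 0.044; called in 1 of 6 repeats). The remaining exclusive calls were Ppap2a, a lipid phosphatase, in the 3 comparisons with set B, Phf21a, a chromatin reader, in the siMbnl1 comparison, and Il17rc, a cytokine receptor subunit, in the cMBNL1 comparison; each held in 1 or 2 of 6 repeats.

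Among the pairs that are not exclusive, those of largest difference were the following. In the nMBNL1 comparison the largest was Mbnl1 itself, at a pair with a 36-base 5′ exon. Its level was 0.269%, 0.448% and 0.2904% with siFmr1 and nMBNL1 and 36.3%, 31.7% and 36.2% in set A (adjusted p = 2.8e-31, quasi-binomial test), and reads of the plasmid and of the gene cannot be told apart. A Mbnl1 pair was also called in the cMBNL1 comparison, in the other direction. There the deposited level was higher by 0.277 with siMbnl1 and cMBNL1 than in set B. In the siMbnl1 comparison the largest was Prune2, with 30.6%, 26.2% and 36.8% for siMbnl1 and pcDNA and 79.8%, 66.9% and 76.2% in the comparison set (adjusted p = 0.029, quasi-binomial test), followed by Epb4.1l3, a membrane skeleton protein, at 36.8 points. With a sample left out Prune2 was called in 2 of 6 repeats and Epb4.1l3 in 3 of 6, and limma called neither. Others named by the rule were Lins (35.97 points) and Ccdc12 (34.6 points) between sets A and B, Tpd52l2 (22.7 points) and the kinase scaffold Mapk8ip3 (16.6 points) in the nMBNL1 comparison, and the centrosome protein Pcnt (42.8 points) and the elongation factor subunit Nelfcd (39.4 points) in the cMBNL1 comparison. Of these, Lins, Mapk8ip3, Pcnt and Nelfcd were mostly joined pairs, with both exons in 93.1% or more of transcripts. Their level compares junctions that lie on the same transcripts. In repeats with a sample left out Lins was called in 1 of 6, Ccdc12 in 2 of 6, Tpd52l2 in 5 of 6, Mapk8ip3 in 1 of 6, Pcnt in 1 of 5 and Nelfcd in 2 of 6, while Mbnl1 was called in 6 of 6.

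**Figure D4:**
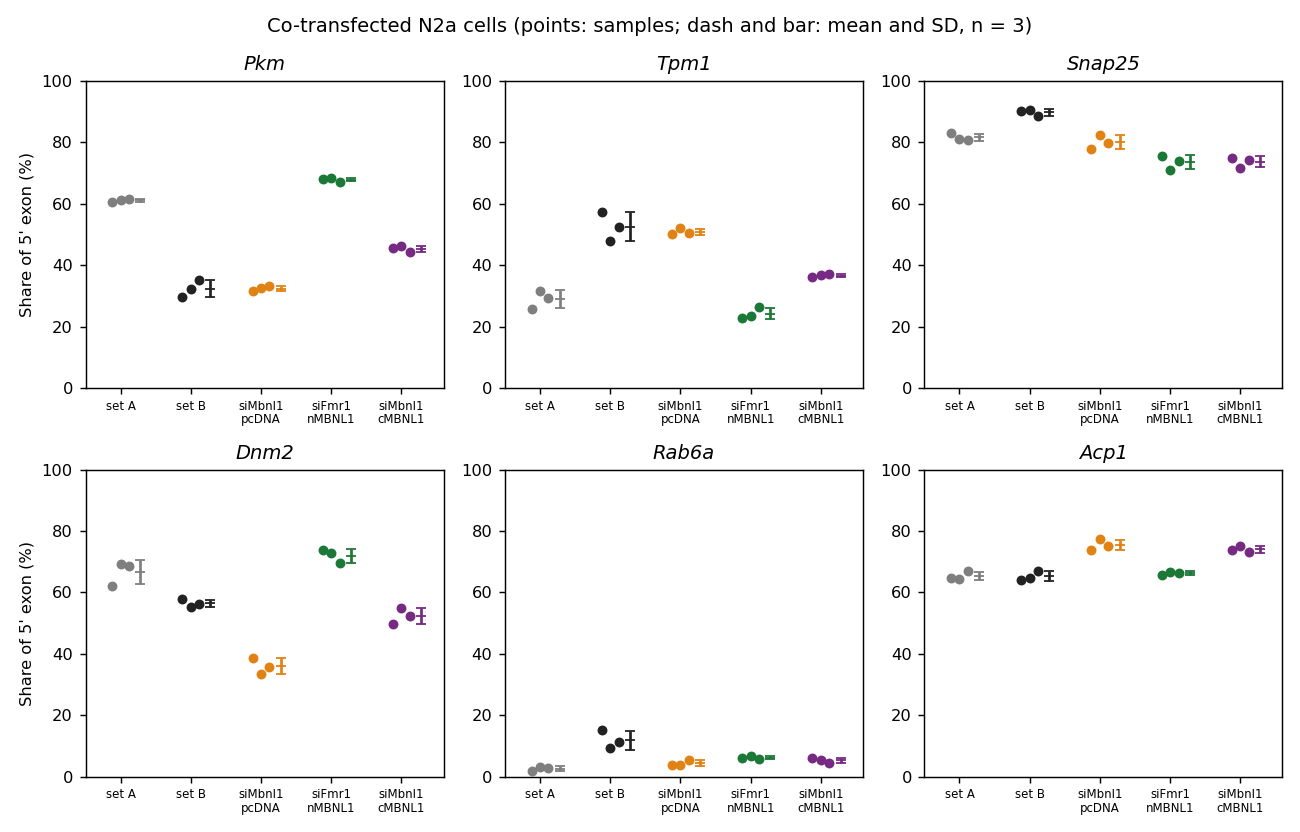
Share of the 5′ exon (%) of 6 exclusive equal-length pairs in the 5 sets of co-transfected N2a cells; points are the 3 samples of a set, dash and bar their mean and SD. The mean of Pkm is 61.1% in set A, 67.8% with siFmr1 and nMBNL1, and 32.4% in set B and with siMbnl1 and pcDNA; Tpm1 is lowest in set A and with siFmr1 and nMBNL1.

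**Figure D5:**
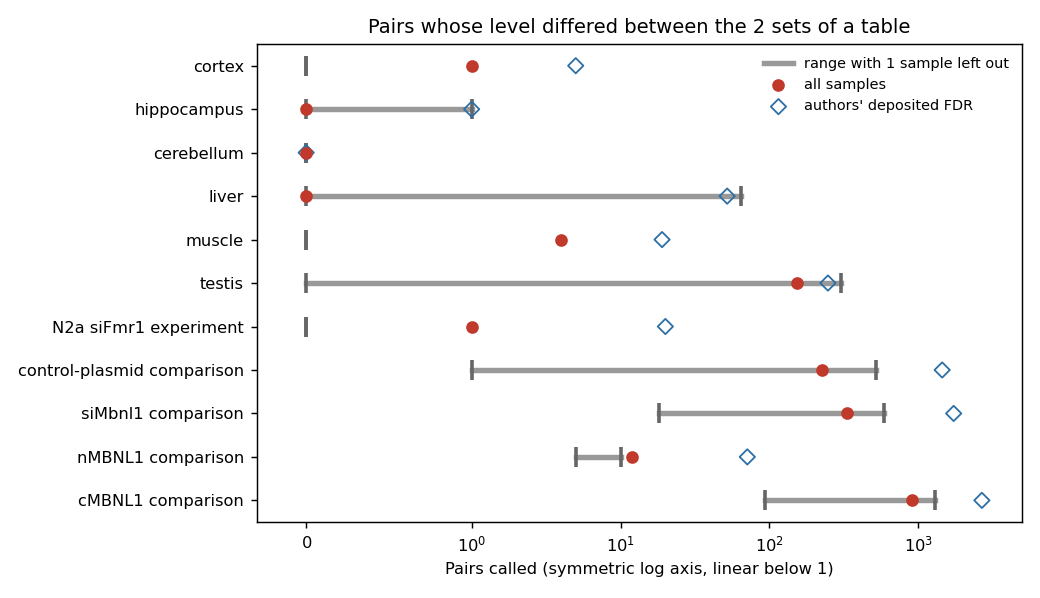
Number of pairs called in each table (red points), with the range when 1 sample is left out (grey bars between end marks, a lone mark where all repeats gave the same count) and the number by the authors' deposited FDR with the same minimum difference (diamonds), on a symmetric log axis that is linear below 1. The grey bar of testis runs from 0 to 301 and that of the cMBNL1 comparison from 93 to 1292.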

How the data were processed

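RNA from 56 samples was sequenced. The deposited junction tables hold read counts that the authors made per splicing event and sample with rMATS, per the file headers, with each form's length, and p-values and an FDR. The reads were aligned to GRCm38 (mm10) and STAR 2.6.1, RSEM 1.3.1 and DESeq2 1.16.1 are named per the submitters' processing notes; the rMATS version is not given in the sources used here. Gene tables hold counts per gene, and for the co-transfection a normalized count signal, as deposited by the authors; 2 count columns of no listed sample were left out. Counts listed in the brain tables with digits regrouped were restored for 15 events where the deposited values allowed a single reading, and 2 Snap25 events were left out; recomputed differences matched the deposited ones within 0.002 for 100% of events.

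Each table was fitted alone (R 4.3.3) with a quasi-binomial model per pair on the 2 sets, a dispersion moderated across pairs and not under 1, an F test and Benjamini-Hochberg adjustment; the script was tested on simulated data. A pair was called at an adjusted p under 0.05 and a difference of at least 10 points. Alternatives were limma 3.58.1 on log2 ratios (with 0.5 added reads), the deposited FDR, no minimum difference, read minimums of 10 and 40 and leaving out each sample. Exons were matched to GENCODE M21 transcripts on GRCm38. Named pairs were the 3 called of largest difference per table, those of a list of 51 genes with known exclusive exons, the exclusive pairs called, and the 8 genes of largest range over at least 4 tissues; others named across tissues were chosen after their values were seen. The members and lists were chosen with earlier results of these data known. One pair that this rule names and one pair's sequences are not reported here.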

Additional observations from a re-analysis of the deposited data

How the results depend on the processing

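Read minimums of 10 and 40 kept every count of calls within 1.5 times. Limma called 0 pairs in every tissue, in the siFmr1 experiment and in the control-plasmid and siMbnl1 comparisons, 1 in the nMBNL1 and 47 in the cMBNL1 comparison. By the authors' deposited FDR the calls were 5 in cortex, 1 in hippocampus, 52 in liver, 19 in muscle, 247 in testis, 20 in the siFmr1 table and 1445, 1726, 71 and 2670 in the control-plasmid, siMbnl1, nMBNL1 and cMBNL1 comparisons. Without a minimum difference they were 4 in cortex, 1 in hippocampus, 348 in testis, 3 in the siFmr1 table, and 372 and 63 in the control-plasmid and nMBNL1 comparisons. With 1 sample left out the counts ran from 0 to 0 in cortex, cerebellum, muscle and the siFmr1 table, 0 to 1 in hippocampus, 0 to 64 in liver, 0 to 301 in testis, and 1 to 518, 18 to 585, 5 to 10 and 93 to 1292 in the 4 co-transfection comparisons; in liver all 64 came without the last value of the second set. The cause of these shifts was not tested. With a read minimum of 40, 67 genes passed in 4 or more tissues, against 111. Of the named pairs that were called, 0 reversed under any alternative. Other alternatives for the classes were chosen after seeing the data: bounds of 20% and 80% gave 26 to 79 exclusive events per table, and reads alone, without annotation, 75 to 926, against 25 to 72. No paired analysis was possible because the columns carry no replicate numbers. Junction reads limit the precision of low pairs, such as Pkm in liver.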
